A study of Mus musculus with 3 samples.

Results

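The 26S proteasome is the protease that degrades proteins tagged with ubiquitin, and the 47 genes described here encode its subunits, its activators and the chaperones that assemble it. They were chosen by symbol from the platform annotation of the array (symbols that begin Psma to Psmg and a digit, together with Pomp and Sem1, the current symbol of Shfm1) out of 16593 genes. The rule reads symbols and no measured value, but the group was picked with earlier results of these data known. They are carried by 69 probes, and for the 18 genes with several probes the brightest one on average was taken. By function 45 of the 47 belong to the proteasome. Psmc3ip, a recombination factor, and Psme3ip1, whose product binds the activator Psme3, were kept because the symbol rule takes them in. Psma8, Psmb11, Adrm1, Psmd3, Psmf1 and Psmg4 were not analysed here.

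The proteasome has a barrel-shaped core particle (20S) closed by a regulatory cap (19S). The outer rings of the barrel are built from alpha subunits and the inner rings from beta subunits, some of which carry the proteolytic sites. The cap binds ubiquitin chains, removes them and unfolds the substrate with a ring of ATPases, and other activators (PA28 and PA200) can take its place on the core. As the egg becomes an embryo, ubiquitin-dependent degradation is one of the routes by which stored maternal proteins are removed.

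Transcript levels came from 3 arrays of the Illumina mouse-8 BeadChip type. 2-cell NSN-a, like 2-cell NSN-b, held embryos from developmentally incompetent eggs, that is, from antral oocytes without a ring of heterochromatin around the nucleolus (NSN, not surrounded nucleolus), and a single array, 2-cell ctrl, held embryos from developmentally competent eggs. All embryos came from B6C3F1 mice (F1B6C3H in the labels), were obtained by in vitro fertilisation and were taken as 2-cell embryos, 26 hr after insemination. By the study's methods the NSN oocytes were isolated from ovaries of females 4 to 6 weeks old that had been injected with PMSG, and were matured in culture, whereas the control eggs were ovulated, and the sperm came from males 5 months old. Oocyte type and culture therefore cannot be told apart. Whether the 2-cell NSN arrays held separate pools of embryos is not given in the sources used here, so their spread may be technical, and the single control array has no replicate. The number of arrays limits the precision of every value below.

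Signals are background-subtracted intensities on a linear scale, so that a signal near 0 or below it is background. A gene was taken as above background when its signal reached the level that corresponds to a detection p value of 0.01, which is 8.57 on 2-cell NSN-a, 8.28 on 2-cell NSN-b (an assumed limit) and 6.10 on 2-cell ctrl. Limits at a detection p value of 0.05 (3.30, 3.18 and 2.94, in the same order) were used as the lenient setting. Summed over all genes the signal was 11537 on 2-cell NSN-a, 11296 on 2-cell NSN-b and 34763 on 2-cell ctrl. Markers of oocytes and early embryos reached the limit for 9 of 15 genes, among which Ooep alone did so on each 2-cell NSN array, and 6 were lower by 1.5-fold or more in 2-cell NSN embryos, with a summed signal over the list of 30.1 on 2-cell NSN-a, 26.8 on 2-cell NSN-b and 255 on 2-cell ctrl. None of the 8 cumulus and granulosa, 5 sperm and testis and 5 leukocyte markers reached the limit at 0.01 on any array, and Inha (3.56) and Foxl2 (3.45) on 2-cell NSN-a and Tnp1 (3.36) on 2-cell NSN-b were over the lenient limit of 1 array each. The summed signals of these lists were 8.02, 2.72 and 6.47 for cumulus and granulosa, 2.05, 8.69 and -0.376 for sperm and testis, and 1.72, 0.722 and 1.98 for leukocytes, in the order 2-cell NSN-a, 2-cell NSN-b and 2-cell ctrl. The part of the lower total signal and of the oocyte markers in the differences below was not tested.

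Most proteasome transcripts lay at background in both groups by the limits used here. 6 of the 47 genes (12.8%) were above background, against 950 of all 16593 genes (5.73%). Psma2 was above background on all 3 arrays. Psma3, Psmc2, Psmd4, Psme3 and Psme4 were above it on 2-cell ctrl but not on the 2-cell NSN arrays. No gene was above background in 2-cell NSN embryos and below it in the control. Summed over the 47 genes the signal was 39.0 on 2-cell NSN-a, 46.5 on 2-cell NSN-b and 98.5 on 2-cell ctrl. Without the 6 genes above background these sums were 7.28, 16.9 and 28.2. In bulk samples fewer cells and less RNA per cell cannot be told apart, which holds for every signal given here.

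**Figure D1:**
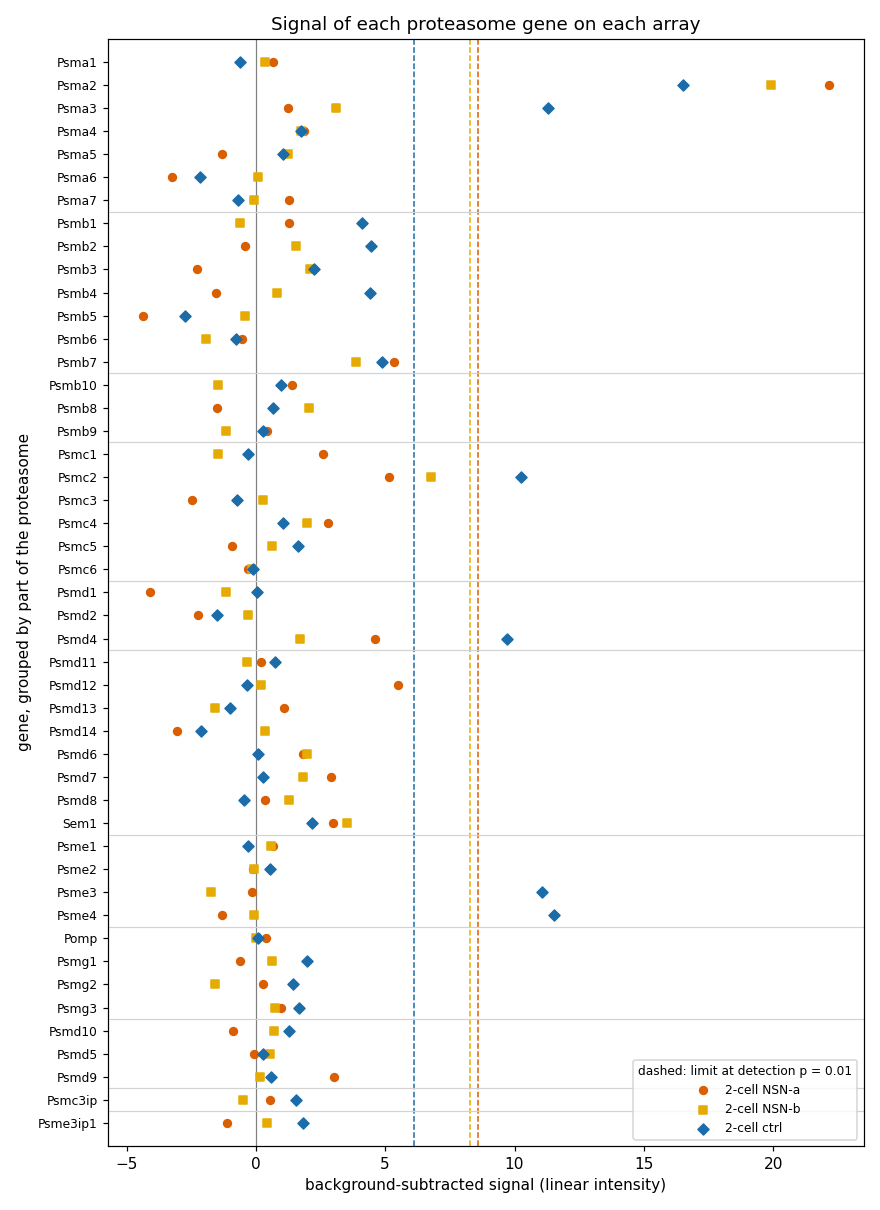
Background-subtracted signal (linear intensity, horizontal axis) of each of the 47 genes (vertical axis, grouped by part of the proteasome and separated by grey lines) on 2-cell NSN-a (circles), 2-cell NSN-b (squares) and 2-cell ctrl (diamonds), with each array's limit at a detection p value of 0.01 as a dashed line. Most points lie near 0, Psma2 lies beyond the limits on all 3 arrays, and Psma3, Psmc2, Psmd4, Psme3 and Psme4 do so on 2-cell ctrl alone.

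The promoters of the genes on which the results turn are shown for reference, since Psma2 was above background in both groups while Psma3, Psme3 and Psme4 passed in limma. RefSeq promoter sequences (GRCm38.p6) were matched for 41 of the 47 genes. The 250 bases before the transcription start are printed 5′ to 3′ on the strand of the gene, and capitals mark CCAAT, the box bound by NF-Y, read on either strand. No match of TGANNNNGC, the core of the antioxidant response element bound by NRF factors, was found in these windows.
Psma2 (plus strand, chr13:14612992-14613241): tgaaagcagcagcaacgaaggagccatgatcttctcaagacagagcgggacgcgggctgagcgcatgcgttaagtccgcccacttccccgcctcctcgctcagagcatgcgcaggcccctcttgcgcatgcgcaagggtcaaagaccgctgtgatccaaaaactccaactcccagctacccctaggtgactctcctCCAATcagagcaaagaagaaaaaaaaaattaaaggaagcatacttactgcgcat
Psma3 (plus strand, chr12:70974373-70974622): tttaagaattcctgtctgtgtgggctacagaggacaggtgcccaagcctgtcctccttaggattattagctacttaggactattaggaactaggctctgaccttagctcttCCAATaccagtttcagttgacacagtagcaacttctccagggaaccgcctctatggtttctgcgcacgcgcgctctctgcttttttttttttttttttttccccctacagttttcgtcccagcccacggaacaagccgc
Psme3 (plus strand, chr11:101315963-101316212): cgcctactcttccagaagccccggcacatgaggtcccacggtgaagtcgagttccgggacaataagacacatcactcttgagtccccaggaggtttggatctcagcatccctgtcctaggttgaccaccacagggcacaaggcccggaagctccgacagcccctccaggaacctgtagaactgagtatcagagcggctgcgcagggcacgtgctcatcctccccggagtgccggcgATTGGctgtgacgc
Psme4 (plus strand, chr11:30771525-30771774): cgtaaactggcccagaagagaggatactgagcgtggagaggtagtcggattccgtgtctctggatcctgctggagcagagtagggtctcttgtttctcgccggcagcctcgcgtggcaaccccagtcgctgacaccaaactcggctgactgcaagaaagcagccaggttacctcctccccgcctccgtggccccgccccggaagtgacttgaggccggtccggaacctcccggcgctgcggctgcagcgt
The box began 54 bases before the start in Psma2, 139 in Psma3 and 14 (on the opposite strand) in Psme3, and Psme4 held none. CCAAT on either strand was present in 15 of 45 promoters of the proteasome genes (33.3%), against 33.8% of all 32851 promoters of the same length. TGANNNNGC was present in 17 (37.8%), against 35.2% of all promoters. The narrower TGACNNNGC, which is contained in it, was present in 5 (11.1%, Psmb5, Psmb6, Psmc6, Psmd9 and Psmd12), against 10.2% of all promoters. These shares differ little from those of all promoters, and a match is a description of the sequence and not of binding.

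To ask how the embryos differed, a gene was called at a 1.5-fold or larger difference between the mean log2 signal of 2-cell NSN and the signal of 2-cell ctrl. Any signal under its limit was raised to that limit, which makes a fold a lower bound where a group lies below background. By this rule none of the 6 proteasome genes above background was called lower or higher, while 44.4% of the 950 genes above background were called lower and 8.32% higher. A gene below the limits on both 2-cell NSN arrays needed a control signal of 12.6 to be called lower, and the brightest of the 5 such proteasome genes had 11.5, so that none of them could be called at these limits and the count cannot be read against the 44.4%. At the lenient limits 10 of the 47 genes passed, with 5 called lower in 2-cell NSN embryos and 0 called higher, against 36.9% lower and 8.53% higher among 2485 genes. All 10 passed on 2-cell ctrl and 3 of them on both 2-cell NSN arrays, so most entered through the group where they read higher, and their count is a description. The control array read above both 2-cell NSN arrays for 20 of the 47 genes, an order that 35.0% of all genes had.

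A second comparison used every probe, with limma on log2(signal + 16), which gives each gene a difference and a standard error but understates the change of dim genes. It assumes that the control varies like the 2-cell NSN arrays. At an adjusted p under 0.05, 3 of the 47 genes (Psma3, Psme3 and Psme4) fell in 2-cell NSN embryos and 0 rose, against 3.09% lower and 0.206% higher over all 25697 probes and 3.97% lower and 0.301% higher over all genes by their brightest probe. At an unadjusted p under 0.05, 7 genes were lower and 0 higher, against 7.01% lower and 1.86% higher over all genes, the other four being Psmb1, Psmb2, Psmb4 and Psmd4. This fit replaced, after the data were seen, one in which signals below 0 were set to 0. That fit also called 3 genes lower, against 1225 lower and 12 higher of all 25697 probes. They were Psmd1, Psme2 and Psme4, so that Psme4 alone was called by both fits. Setting signals to 0 leaves the 2-cell NSN arrays with equal values for Psmd1, Psme2, Psme3 and Psme4, among others. Their differences in that fit were -0.00374, -0.0468, -0.758 and -0.782. The call of Psme4 there thus rests on the same zeroing (adjusted p = 0.0484 from limma). With an offset of 4 as well, Psme4 did not pass (adjusted p = 0.0649 from limma). After quantile normalization of the log2 values with signals as given, 0 genes were lower and 1, Psma2, was higher. Of all 25697 probes, 302 were lower and 91 higher there. At an unadjusted p under 0.05, 3 proteasome genes were lower, and the share over all genes is not given for that setting. The median difference over the 47 genes was -0.0415, against -0.00555 over all genes.

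**Figure D2:**
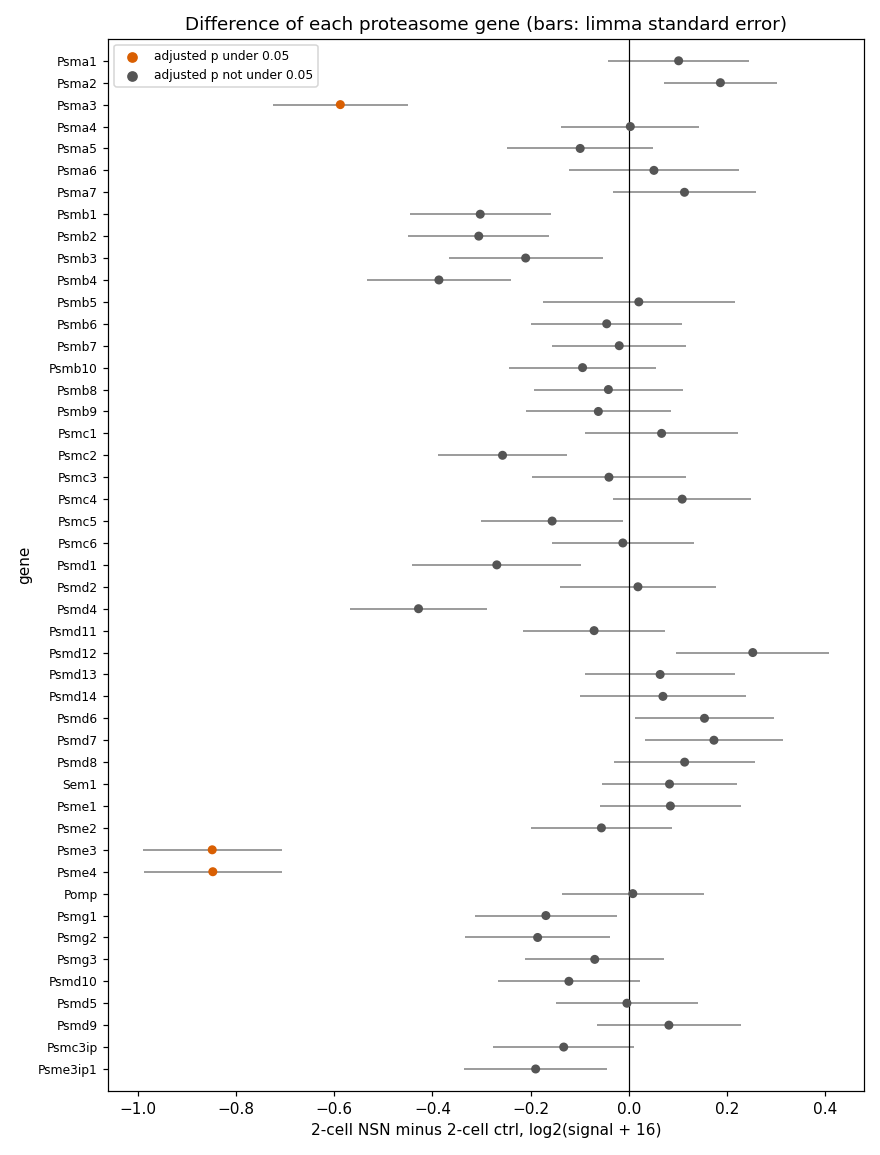
Difference between 2-cell NSN and 2-cell ctrl embryos for each of the 47 genes (vertical axis), in log2(signal + 16) units (horizontal axis), with the standard error from limma as a bar and genes at an adjusted p under 0.05 in orange. Psme3 (-0.85), Psme4 (-0.85) and Psma3 (-0.59) stand to the left of the others.

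Of the 7 alpha ring genes of the core, 2 were above background. Psma2, an alpha subunit of the outer ring, had a signal of 22.2 on 2-cell NSN-a, 19.9 on 2-cell NSN-b and 16.5 on 2-cell ctrl. It had the highest signal of the 47 genes on every array, and both 2-cell NSN values lay above the control. The difference was 1.27-fold (0.35 on the log2 scale). Over the 136 probes above background on all 3 arrays, of which limma called 22.8% lower and 43.4% higher, it did not pass (standard error 0.18, adjusted p = 0.154). Its direction depended on the scaling between arrays: after each 2-cell NSN array was divided by its median ratio to the control over those 136 probes (1.43 for 2-cell NSN-a and 1.39 for 2-cell NSN-b) the log2 difference was -0.15, and with normexp correction and quantile normalization it was 1.08.

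Psma3, another alpha subunit, had signals of 1.26 on 2-cell NSN-a, 3.10 on 2-cell NSN-b and 11.3 on 2-cell ctrl. Both 2-cell NSN values were below the lenient limits. It was at least 1.34-fold lower with the limits at 0.01 and at least 3.48-fold lower at 0.05, and in limma the difference was -0.59 (standard error 0.14, adjusted p = 0.00697). This rests on 1 of 2 probes, since the other gave -2.19, -0.0887 and -1.20 in the same order of arrays, which is background throughout. The remaining 5 alpha subunits (Psma1, Psma4, Psma5, Psma6 and Psma7) were below the lenient limit on every array. Among these Psma4, the brightest, gave 1.85, 1.75 and 1.76, so the arrays hardly differed.

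In the beta ring none of the 7 genes reached the limit at 0.01. The control array stood above both 2-cell NSN arrays for 4 of 7 genes, an order that 35.0% of all genes had. Psmb4, a beta subunit without a proteolytic site, had signals of -1.52 on 2-cell NSN-a, 0.817 on 2-cell NSN-b and 4.40 on 2-cell ctrl, which limma put at -0.39 (standard error 0.15, adjusted p = 0.284). Psmb2 gave -0.408, 1.56 and 4.45, and Psmb1 1.28, -0.620 and 4.11, in the same order. For Psmb2 this rests on 1 of 3 probes. The others gave -3.38, -1.85 and 0.103, and -0.318, -1.46 and -1.77, which is background throughout. Psmb1, Psmb2 and Psmb4 were above the lenient limit on 2-cell ctrl but not on the 2-cell NSN arrays, and their bounds at that limit (at least 1.27-fold, 1.37-fold and 1.36-fold lower) fell short of 1.5-fold. Psmb3 stayed under the limits with -2.26, 2.08 and 2.24. Psmb7, which carries the trypsin-like site, was above the lenient limit on all 3 arrays with 5.33 on 2-cell NSN-a, 3.87 on 2-cell NSN-b and 4.87 on 2-cell ctrl. The control value lay between those of the 2-cell NSN arrays (limma difference -0.02, standard error 0.14, adjusted p = 0.999). These values are of the brightest of 3 Psmb7 probes. The others read highest on 2-cell ctrl, with 1.48, 3.93 and 4.38, and 0.275, 1.30 and 2.86, in the same order. Their limma differences of -0.13 and -0.17 did not pass either. The other catalytic subunits were at background: Psmb5, with the chymotrypsin-like site, gave -4.37, -0.421 and -2.73, and Psmb6, with the caspase-like site, gave -0.536, -1.93 and -0.781. The immunoproteasome subunits Psmb8, Psmb9 and Psmb10, which replace the catalytic ones in cells of the immune system, ran from -1.49 to 1.38 on 2-cell NSN-a, from -1.45 to 2.06 on 2-cell NSN-b and from 0.291 to 0.974 on 2-cell ctrl.

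In the base of the cap 1 of the 6 ATPases was above background. Psmc2 had signals of 5.15 on 2-cell NSN-a, 6.78 on 2-cell NSN-b and 10.2 on 2-cell ctrl, and it was above the lenient limit on all 3 arrays. With both groups measured at that limit it was 1.73-fold lower in 2-cell NSN embryos, and it is the only one of the 5 lower genes with a measured fold and not a bound. In limma the difference was -0.26 (standard error 0.13, adjusted p = 0.735), which did not pass, and it was 0.16, in the opposite direction, after quantile normalization. The other ATPases ran from -2.47 (Psmc3) to 2.79 (Psmc4) on 2-cell NSN-a, from -1.48 to 1.98 on 2-cell NSN-b and from -0.740 to 1.63 on 2-cell ctrl. Psmc4, the brightest of them, gave 2.79, 1.98 and 1.04, with both 2-cell NSN arrays above the control (limma difference 0.11, standard error 0.14, adjusted p = 0.999).

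Psmd4, a ubiquitin receptor of the cap, had signals of 4.60 on 2-cell NSN-a, 1.71 on 2-cell NSN-b and 9.70 on 2-cell ctrl. The 2-cell NSN arrays fell on either side of the lenient limit. It was at least 1.15-fold lower with the limits at 0.01 and at least 2.54-fold lower at 0.05, and in limma the difference was -0.43 (standard error 0.14, adjusted p = 0.120). The scaffold subunits Psmd1 and Psmd2 were at background, with -4.08, -1.14 and 0.0415 for Psmd1 and -2.23, -0.308 and -1.49 for Psmd2. None of the 8 lid genes was above the limit at 0.01. For 5 of them (Psmd6, Psmd7, Psmd8, Psmd12 and Sem1) both 2-cell NSN arrays read above the control, an order that 31.7% of all genes had, at levels where all values but 2 were under the lenient limits. Those 2 were 5.51 for Psmd12 on 2-cell NSN-a, with 0.209 on 2-cell NSN-b and -0.328 on 2-cell ctrl, and 3.51 for Sem1 on 2-cell NSN-b, with 2.98 on 2-cell NSN-a and 2.17 on 2-cell ctrl. For Psmd6, Psmd7 and Psmd12 the order rests on 1 of 2 probes. The other probe read highest on 2-cell ctrl for Psmd6 (-2.09, -2.97 and -2.06) and Psmd7 (0.636, -0.744 and 2.53). These values are in the order 2-cell NSN-a, 2-cell NSN-b and 2-cell ctrl. For Psmd12 the control value of the other probe lay between those of the 2-cell NSN arrays. Psmd14, the deubiquitinase of the lid, gave -3.03, 0.343 and -2.13, and Psmd11 and Psmd13 were at background too.

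Among the activators, Psme3 and Psme4 had the largest decreases of the 47 genes in limma. Psme3 encodes PA28 gamma, an activator of nuclear proteasomes, and gave -0.164 on 2-cell NSN-a, -1.75 on 2-cell NSN-b and 11.1 on 2-cell ctrl. The 2-cell NSN values lay at 0 or under it, and the control value was above its limit of 6.10. Psme3 was at least 1.31-fold lower with the limits at 0.01 and at least 3.41-fold lower at 0.05, with a limma difference of -0.85 (standard error 0.14, adjusted p = 9.59e-05). Psme4 encodes PA200, an activator known for the degradation of acetylated histones in the testis, and gave -1.30, -0.0884 and 11.5 in the same order. It was at least 1.37-fold lower with the limits at 0.01 and at least 3.55-fold lower at 0.05, with a limma difference of -0.85 (standard error 0.14, adjusted p = 8.25e-05). Psme3 was measured by 1 probe, whereas Psme4 had 2 and the other gave 0.471, 0.211 and 0.110, so 1 of 2 probes carried the difference. Psme1 and Psme2, which form the interferon-inducible activator PA28 alpha-beta, were at background on every array, with 0.674, 0.602 and -0.313 for Psme1 and -0.117, -0.0802 and 0.528 for Psme2.

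**Figure D3:**
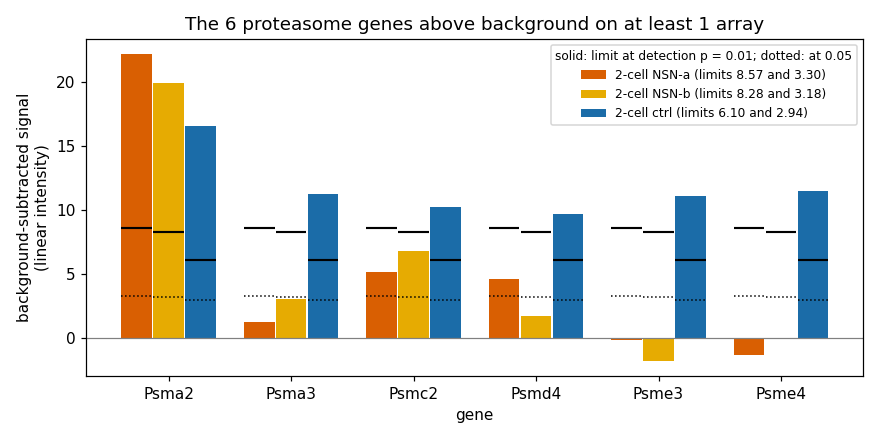
Background-subtracted signal (linear intensity, vertical axis) of the 6 genes above background on at least 1 array (horizontal axis), with bars from left to right for 2-cell NSN-a, 2-cell NSN-b and 2-cell ctrl, 1 array each and hence without error bars. Solid lines mark each array's limit at a detection p value of 0.01 and dotted lines that at 0.05: Psma2 is over all limits in both groups, and Psme3 and Psme4 read at or under 0 on both 2-cell NSN arrays against 11.1 and 11.5 on 2-cell ctrl.

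None of the 7 assembly factors was above even the lenient limit. Pomp, the maturation factor of the core, gave 0.380 on 2-cell NSN-a, 0.00062 on 2-cell NSN-b and 0.0966 on 2-cell ctrl. The chaperones of the alpha ring gave -0.606, 0.610 and 1.98 for Psmg1, 0.292, -1.56 and 1.44 for Psmg2, and 0.957, 0.737 and 1.68 for Psmg3. For Psmg1, Psmg2 and Psmg3 the control was above both 2-cell NSN arrays, an order that 35.0% of all genes had. Every value was under the limit, and the limma differences of -0.17, -0.19 and -0.07 did not pass (adjusted p = 0.999 for each). The chaperones of the ATPase ring (Psmd5, Psmd9 and Psmd10) ran from -0.869 to 3.02 on 2-cell NSN-a, from 0.167 to 0.688 on 2-cell NSN-b and from 0.290 to 1.29 on 2-cell ctrl, and overlapped between the groups. Psmc3ip gave 0.548, -0.478 and 1.57, and Psme3ip1 -1.13, 0.445 and 1.83.

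The only spread between replicates that can be measured is that of the 2-cell NSN arrays. At the lenient limits 3 proteasome genes were measured on both, and the log2 ratio of 2-cell NSN-a to 2-cell NSN-b was 0.15 for Psma2, -0.40 for Psmc2 and 0.46 for Psmb7. None passed 1.5-fold, and the median size was 0.40, against 0.26 over 705 genes, of which 148 passed. Beside these, the log2 difference from the control was 0.35 for Psma2 (-0.15 after rescaling), -0.79 for Psmc2 and -0.10 for Psmb7, each on a single control reading. For the Psmb7 probe used, the difference from the control was smaller than that between the 2-cell NSN arrays. The other Psmb7 probes read highest on the control.

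Of the 23 other genes of the ubiquitin-proteasome pathway that were listed, 14 were found on the array, 2 were above background and 1 was called lower. Over all genes, 44.4% of the 950 above background were called lower. Nfe2l1, which encodes NRF1, the transcription factor that raises proteasome gene expression when proteasome activity is low, had signals of 0.0124 on 2-cell NSN-a, 0.963 on 2-cell NSN-b and 40.5 on 2-cell ctrl. It was lower by at least 4.80-fold in 2-cell NSN embryos (limma difference of -1.78, standard error 0.13, adjusted p = 7.46e-12), so the groups lay far apart, on 1 probe. Ubqln1, a shuttle factor that delivers ubiquitinated proteins to the proteasome, gave 0.725, 0.399 and 12.6 in the same order. It was at least 1.49-fold lower, just short of the threshold, with a limma difference of -0.79 (standard error 0.14, adjusted p = 0.000174). Only the brightest of the 4 Ubqln1 probes was used. In limma 2 of the 14 genes were thus lower and 0 higher, against 3.97% lower and 0.301% higher over all genes by their brightest probe. The remaining genes of the list were below background at 0.01.

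**Figure D4:**
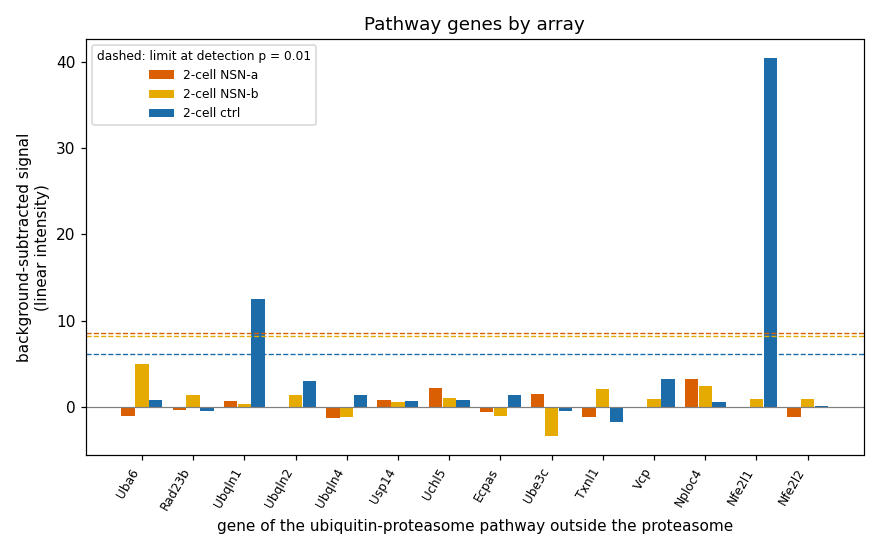
Background-subtracted signal (linear intensity, vertical axis) of 14 genes of the ubiquitin-proteasome pathway outside the proteasome itself (horizontal axis), with bars from left to right for 2-cell NSN-a, 2-cell NSN-b and 2-cell ctrl and each array's limit at a detection p value of 0.01 as a dashed line. Nfe2l1 (40.5) and Ubqln1 (12.6) on 2-cell ctrl are the readings above the limits.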

How the data were processed

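RNA of 2-cell embryos was hybridised to 3 Illumina mouse-8 BeadChips. The labels describe a single amplification and the methods 2 rounds. The authors subtracted background, normalized by rank invariance and filtered on negative control beads (BeadStudio 3, per the submitters' processing notes). The deposited intensities used here are linear, with medians of 0.0443 (2-cell NSN-a), 0.0195 (2-cell NSN-b) and 0.0916 (2-cell ctrl), and the exact scaling stays unknown. 3 value columns of another table match no sample by name and were not used. Detection limits were placed on the deposited signals through detection p values that the study's own table pairs with them (896 of 1188 rows held matched within 0.002%), and that of 2-cell NSN-b was scaled from 2-cell NSN-a by the spread below the median. Of 25697 probes, 23978 have 1 symbol and 1719 none here.

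A fold of 1.5 and a detection p value of 0.01 follow the study's methods. limma 3.58.1 (R 4.3.3), run with an intensity trend and adjusted by Benjamini-Hochberg, had 1 residual degree of freedom, from the 2-cell NSN arrays. The written design set signals below 0 to 0 before log2(signal + 16). On simulated data that fit recovered none of the changed probes, so signals were taken as given, a choice made after seeing the data. On these arrays, however, that fit called 1225 probes lower and 12 higher, against 793 and 53 with signals as given. The simulation therefore did not reproduce its behaviour here and cannot decide between the 2 fits. Counts and plots were made in Python 3.11.15 (matplotlib 3.10.9, numpy 2.4.6, pandas 2.3.3). The genes and lists were chosen with earlier results of these data known. Values were given on every array for members above a limit and for the catalytic subunits, other members as ranges with the brightest as examples. Other members given by name, beyond the brightest of a class, were named after their values were seen. Alternatives covered the limits, offset, scaling, fold, probes per gene and each 2-cell NSN array left out. Protein sequences were not used here.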

Additional observations from a re-analysis of the deposited data

How the results depend on the processing

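The count of proteasome genes called depended on the limits and the scaling. Against 0 lower and 0 higher of 6 above background, 5 were lower of 10 at a detection p value of 0.05 and 5 of 10 with limits from the mirrored background of each array, 5 after rescaling to the control and 3 with log2(signal + 16), whereas 1 (Psma2) was higher with normexp and quantile normalization, where the other 5 had differences of 0.41 to 0.46 with their 2-cell NSN readings raised to the limits. The 5 were Psma3, Psmc2, Psmd4, Psme3 and Psme4 in each case, and the 3 were Psma3, Psme3 and Psme4. The mirrored limits are another estimate of the 0.01 level and were lower than the main ones. They were 4.16 on 2-cell NSN-a, 3.99 on 2-cell NSN-b and 3.29 on 2-cell ctrl. The count at 0.01 therefore depends on how that level is placed. At a fold of 2, with averaged probes (4 above background), with both 2-cell NSN arrays required to pass, or without either 2-cell NSN array, 0 were called. With the 2-cell NSN limits at 0.01 above the control limit, a gene below the limits on both 2-cell NSN arrays needed a control signal of 12.6 to be called, so the low signal over background limits these calls.

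Over all genes (422 lower and 79 higher of 950) the counts were 917 and 212 of 2485 at 0.05, 758 and 170 of 2078 with mirrored limits, 510 and 29 with log2(signal + 16), 573 and 33 after rescaling, 52 and 126 with normexp and quantile, and 315 and 34 at a fold of 2. They ran from 413 to 427 lower, 89 to 90 higher and 965 to 974 above background without one 2-cell NSN array. In limma over all probes (793 lower, 53 higher) they were 1225 and 12 with signals below 0 set to 0. With signals below 0 set to 0 and an offset of 4 together, 4 probes were higher. Over the 1151 probes above the limit on at least 1 array, 842 were lower and 80 higher. There 4 of 6 proteasome genes were lower (Psma3, Psmd4, Psme3 and Psme4) and 0 higher. Psmd4 passed in that fit alone (adjusted p = 0.0156 from limma). Those 4 entered through 2-cell ctrl, where they read higher, so their count is a description. After quantile normalization 302 probes were lower and 91 higher, with 0 proteasome genes lower and 1 higher. Psmc2 (0.16) and Psmb7 (0.14) changed direction there, and Psma3, Psme3 and Psme4 no longer passed (adjusted p = 0.767, 0.0687 and 0.0845 from limma). With signals below 0 set to 0, Psma3 and Psme3 did not pass (adjusted p = 0.271 and 0.0504 from limma), and the 3 genes called were Psmd1, Psme2 and Psme4. With signals below 0 set to 0 and an offset of 4, the 2 genes called were Psmd1 and Psme2, against 1023 lower of 25697 probes. Over the 136 probes above background on all 3 arrays, 28 were higher after rescaling, and Psma2 had -0.15. The cause of these shifts was not tested. Leaving out a 2-cell NSN array leaves limma no residual degrees of freedom, so those fits were not run. No paired analysis was possible because the control group has 1 sample.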
